A study of Mus musculus with 64 samples.

Results

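The comparison described here asks where in the brain the *Cyfip2* +/R87C knock-in (KI) changed RNA levels at postnatal week (PWK) 14: in hippocampus, in frontal cortex, or in both to an unequal extent. It used the 16 libraries of PWK 14 out of 64 in the series, namely 4 KI cortex, 4 wild-type (WT) cortex, 4 KI hippocampus and 4 WT hippocampus, and the members are the genes whose KI effect differed between the regions. KI mice are heterozygous for the germline R87C change (arginine to cysteine) in *Cyfip2*, are on the C57BL/6N background and were compared with WT mice of the same background and age. Equal replicate numbers of 1 genotype were treated as 1 mouse, so that each gene had a hippocampus-minus-cortex difference in 4 KI and 4 WT mice. Brains were collected within one afternoon window of the light phase, per the labels, and the tissue was bulk, with no sort of cell types.

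CYFIP2 is a subunit of the WAVE regulatory complex, through which the small GTPase Rac1 drives branched actin assembly, and it also binds the translational regulator FMRP. Hippocampus and frontal cortex share their main cell classes, excitatory neurons, interneurons, astrocytes, oligodendrocytes, microglia and vessels, but differ in their neuron types, with dentate granule cells and CA pyramidal cells in the former and layered pyramidal cells in the latter. In rodents with seizures the hippocampus, and the dentate gyrus in particular, is known for strong changes in neuropeptides, growth factors and glial genes. In bulk tissue, fewer cells of a type and less RNA per cell cannot be told apart.

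The values were normalised counts, which summed to between 29.7 and 32.2 M per library, and 61 to 189 genes of a library had no signal. The region labels fitted their markers. The summed level of 4 dentate granule cell markers was 6018 to 10621 in hippocampus and 466 to 678 in cortex, and that of 5 cortical layer markers was 14345 to 18629 in cortex and 3654 to 5855 in hippocampus. Markers of neighbouring tissue differed between libraries. Striatal markers (5 genes) summed to 6567 in the cortex of KI mouse 2 and to 2512 or less in the other cortical libraries, thalamic markers (3 genes) summed to 852 to 1356 in KI and 1722 to 1919 in WT hippocampus, and choroid plexus markers (5 genes) ran from 1906 to 105181 over the hippocampal libraries of both genotypes. KI mouse 1 stood apart in hippocampus, where its 3 astrocyte markers summed to 58309. For gene lists, a check without KI mouse 1 or KI mouse 2 was chosen after seeing the data. Counts of called region differences stated in the text are repeated for this check where they differ by over 1.5 times. Other list counts, such as those by class or of genes lower in 1 region, also moved and are mostly not repeated. *Cyfip2* itself read 20608, 34100.2, 34409 and 25379.8 normalised counts in the hippocampus of KI mice 1 to 4 and 31256, 31064, 31149 and 35756 in WT mice. In cortex it read 28584, 33140.3, 38683 and 33633 in KI and 42735, 44053, 40443 and 39966 in WT mice. Its KI effect did not differ detectably between the regions (0.12 ± 0.12 on the log2 scale, SE, adjusted p = 0.638), and it was called in neither, although KI and WT mice did not overlap in cortex (-0.33 ± 0.09, adjusted p = 0.0539), and RNA levels of a point-mutated allele do not check the genotype labels.

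The KI effect differed between hippocampus and cortex for 724 of 18424 genes (3.93%; 427 or 2.32% with a more positive and 297 or 1.61% with a more negative effect in hippocampus) at an adjusted p under 0.05. With total-sum scaling in place of the deposited scaling, 794 genes were called, 49.4% of them positive against 59.0% here, so the balance of signs depends on the scaling. Within one region, 2870 of 18405 genes differed between KI and WT in hippocampus (15.6%; 7.64% higher and 7.95% lower in KI mice) and 951 of 18367 in cortex (5.18%; 2.48% higher and 2.7% lower). Total-sum scaling turned the cortical balance as well, from 455 higher and 496 lower to 541 and 355. The genotypes had separate ranges for 23.8% of genes in hippocampus and 14.1% in cortex. Of the 724, 494 were called in hippocampus and not in cortex, of which 279 were higher and 215 lower in KI mice. For 4 of the 494, cortex was not tested. In cortex and not in hippocampus, 95 were called, 33 higher and 62 lower. Another 30 were called in both regions in the same direction with unequal size, 22 in both in opposite directions, and 83 in neither region alone. The change was larger in hippocampus for 598 of the 724 and larger in cortex for 122. Over all 18424 tested genes these counts were 11785 and 6559. Without KI mouse 1 the count rose to 1129, and without WT mouse 1 it fell to 211, with 784 and 143 hippocampus-only genes.

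A missed threshold in the other region does not show that a gene was unchanged there, so the interval of the other region was used. For 349 of the 494 hippocampus-only genes (173 higher, 176 lower) and 58 of the 95 cortex-only genes (13 higher, 45 lower), the 95% interval of the fold change in the other region lay within 1.5-fold either way. The median size of the change in hippocampus was 0.77 on the log2 scale for hippocampus-only genes, against 0.14 in cortex. For cortex-only genes it was 0.54 in cortex and 0.17 in hippocampus. The within-mouse differences of KI and WT mice did not overlap for 713 of the 724 genes (13.8% of all genes), which is a description, since the genes were called on these differences. The genes nearest the threshold were *Mr1*, just inside with an adjusted p of 0.0498, and *Kcnj2*, just outside at 0.0502.

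**Figure D1:**
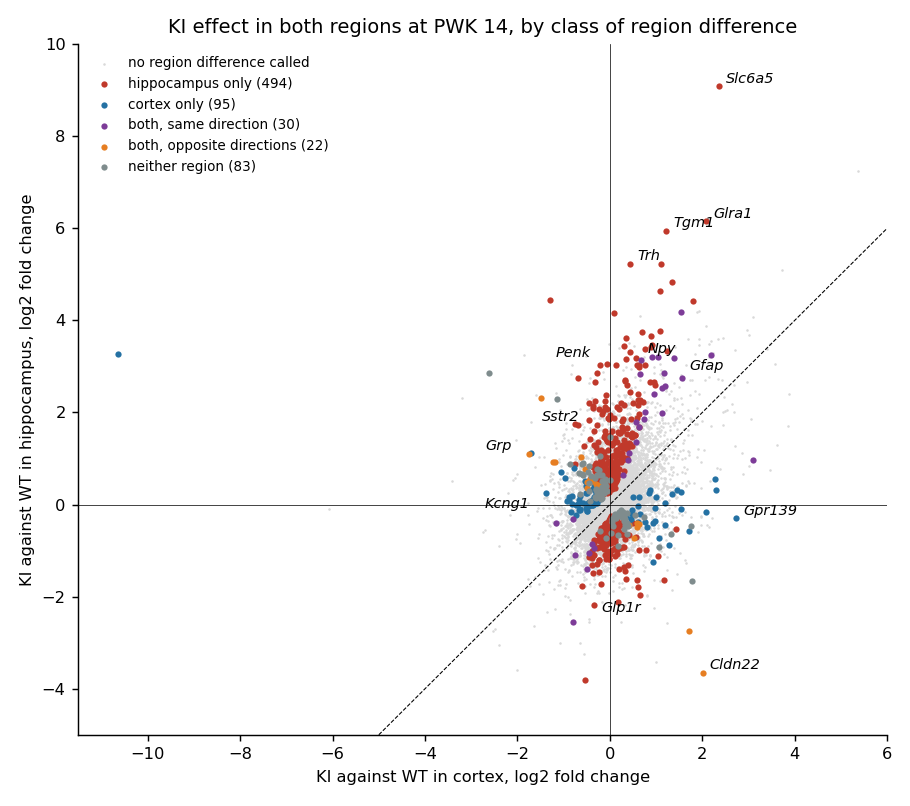
Log2 fold change of KI against WT in cortex (x axis) and hippocampus (y axis) at PWK 14, one point per gene, with genes of a called region difference coloured by class and the dashed line marking equal change. The 494 hippocampus-only genes spread along the vertical axis and the 95 cortex-only genes along the horizontal one. The cortex-only point at the far left is the pseudogene *Gm10222*.

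The gene with the smallest p was *Sstr2*, which encodes a receptor for the inhibitory neuropeptide somatostatin and lies on chromosome 11 (113619342 to 113626028, plus strand, GRCm38). It read 859, 726, 986 and 848 normalised counts in the hippocampus of KI mice 1 to 4 and 269, 304, 219.7 and 235 in WT mice. In cortex it read 509, 396, 543 and 504 in KI and 666, 577, 536 and 597 in WT mice. In WT mice the level was thus higher in cortex, and in KI mice hippocampus was the higher region in all 4. The hippocampal change was 1.73 ± 0.13 on the log2 scale (SE, adjusted p = 0.00016), the cortical change -0.29 ± 0.11 (95% interval -0.53 to -0.05, adjusted p = 0.156) and the region difference 2.02 ± 0.12 (adjusted p = 0.000125). The 250 bases before its RefSeq start hold one cAMP response element, the binding sequence of the activity-regulated factor CREB, shown in capitals because this gene had the smallest p (GRCm38.p6, chr11:113619077-113619326, plus strand).

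Sstr2: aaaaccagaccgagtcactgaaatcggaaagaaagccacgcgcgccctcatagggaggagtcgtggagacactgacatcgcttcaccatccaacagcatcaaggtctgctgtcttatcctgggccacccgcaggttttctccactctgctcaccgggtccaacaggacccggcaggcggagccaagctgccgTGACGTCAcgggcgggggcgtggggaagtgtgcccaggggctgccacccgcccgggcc

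The second smallest p was that of *Gm11549*, a gene of chromosome 3 that the annotation lists as protein-coding and whose function is not described. In hippocampus it read 571, 652, 692 and 631 in KI and 159.7, 170.3, 209 and 132 in WT mice, with no overlap. Cortex held far more, 1486, 1555, 1308 and 1555 in KI and 1436, 1535, 1569.7 and 1319.5 in WT mice, and the cortical interval of the change was narrow (-0.16 to 0.18 on the log2 scale). The KI hippocampus therefore moved part of the way to the cortical level, with a region difference of 1.92 ± 0.13 (adjusted p = 0.000235).

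Among the hippocampus-only genes that were higher in KI mice, the glycine transporter *Slc6a5* had the largest region difference of the named genes (6.73 ± 0.97, adjusted p = 0.007). *Slc6a5*, the neuronal glycine transporter GLYT2, read 3101, 879, 908 and 1474 in the hippocampus of KI mice 1 to 4 and 0.981, 4.24, 0 and 3.15 in WT mice. Its cortical values were 16.3, 14, 42.3 and 16.2 in KI and 4.38, 6.4, 6.19 and 0 in WT mice, so that the genotypes did not overlap in cortex either. The change was 9.08 ± 0.56 in hippocampus (adjusted p = 0.000114) and 2.35 ± 0.63 in cortex (adjusted p = 0.0587), and "hippocampus only" here means a much larger change there, not none in cortex. *Glra1*, a glycine receptor alpha subunit, was similar, with a change of 6.15 ± 0.35 in hippocampus and 2.08 ± 0.65 in cortex (adjusted p = 0.0928). These were the 2 called genes of 7 on the glycine list.

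Neuropeptide precursors followed. *Trh*, the thyrotropin-releasing hormone precursor, read 5060.2, 357, 373 and 154 in KI hippocampus and 31.4, 14, 10.4 and 8.67 in WT hippocampus, and 116, 17.9, 52.9 and 19.3 against 29, 24.9, 46.3 and 18.3 in cortex. KI mouse 1 was the highest by far, but the other KI mice also lay above all WT mice in hippocampus, and the cortical groups overlapped. The region difference was 4.79 ± 0.62 (adjusted p = 0.00464). *Penk*, the enkephalin precursor, read 7655, 3053, 4168 and 3160.3 in KI and 438, 514, 462 and 622 in WT hippocampus. In cortex it read 825, 2541, 522 and 386 in KI and 832, 821, 936 and 810 in WT mice, where the 2541 of KI mouse 2 belongs to the library with the high striatal markers, and enkephalin is abundant in striatum. The part of striatal tissue in the cortical value was not tested, and without that mouse the region difference of *Penk* was still called. It was not called without WT mouse 1 or without WT mouse 2 (adjusted p up to 0.0603).

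The other large hippocampus-only rises came from weakly expressed genes. *Tgm1*, a transglutaminase, read 1702, 101, 84 and 123 in KI and 1.78, 2.32, 1.83 and 3.85 in WT hippocampus, and at most 4.82 in every cortical library. *Otop1*, a proton channel gene, rose by 5.22 on the log2 scale in hippocampus where it read 30.1, 118, 134 and 93.9 in KI and 3.67, 1.59, 0 and 0.992 in WT mice, and at most 3.82 in every cortical library. *Msx3*, a homeobox gene, and *Serpina3i*, of the serine protease inhibitor family, read 28.4, 229, 134 and 33.7 and 169, 44.2, 22.2 and 28.7 in KI hippocampus, with at most 3.09 and 3.14 in WT hippocampus. Their cortical means were under 1 normalised count, so cortex was not tested. *Serpina3i* belongs to a cluster of near-identical genes between which reads may be split. Each of *Tgm1*, *Otop1*, *Msx3* and *Serpina3i* lost its call when any 1 of 3 or more mice was left out, and *Msx3* and *Otop1* also lost it with a pseudocount of 0.5 (adjusted p = 0.084 and 0.0976).

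**Figure D2:**
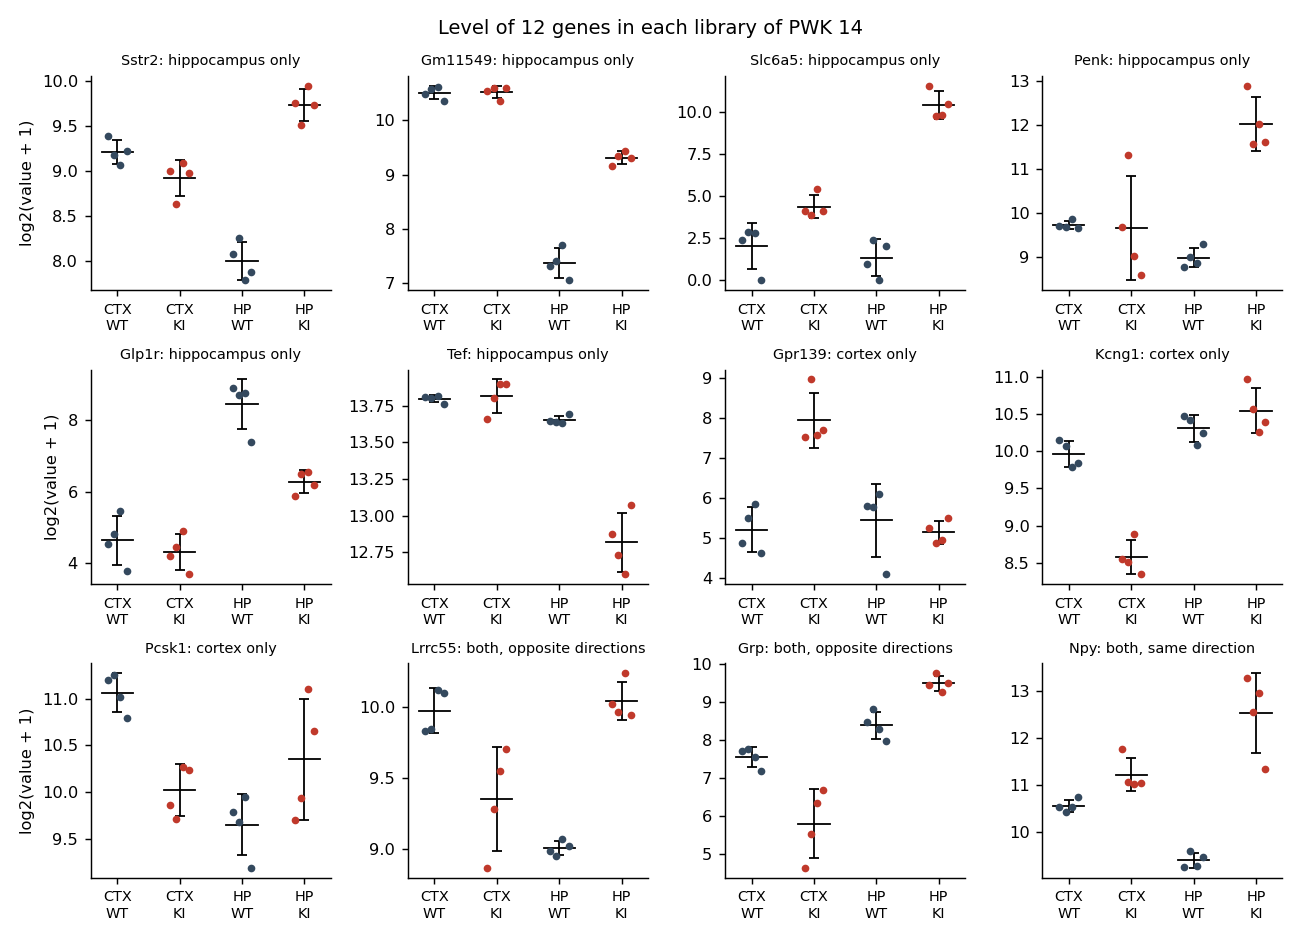
Level of 12 named genes in the 16 libraries of PWK 14, as log2 of the normalised count plus 1, with one point per library, WT in dark grey and KI in red, and bars for the mean and SD (n = 4). The y axes do not start at 0, and *Tef* was chosen after its values were seen. For *Sstr2* the 4 KI hippocampal libraries lie between 726 and 986 and the WT ones between 219.7 and 304, while *Gpr139* and *Kcng1* part the genotypes in cortex.

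Named hippocampus-only genes also fell in KI mice. *Glp1r*, the receptor of the incretin hormone GLP-1, read 57.9, 89.9, 93.4 and 71 in KI and 478, 423, 437 and 168 in WT hippocampus. Cortical levels were low in both genotypes, 17.2, 20.5, 28.7 and 11.8 in KI and 21.9, 26.9, 42.4 and 12.7 in WT mice, and overlapped. It fell by 2.17 on the log2 scale in hippocampus, with a region difference of -1.83 ± 0.30 (adjusted p = 0.012, and 0.0691 without the mouse block). *Rasd1*, a dexamethasone-induced Ras-like GTPase, read 201, 357, 532 and 430.1 in KI and 904, 997, 929 and 1056 in WT hippocampus, against 60.8, 66, 95.7 and 110.1 and 69.9, 85.7, 57.8 and 48.7 in cortex. *Ntn5*, of the netrin family, changed by -0.99 ± 0.17 in hippocampus and had a cortical estimate of 0.79 ± 0.26. *Sec1*, a fucosyltransferase gene, and *Erich5* changed by -1.96 and -1.79 in hippocampus, with cortical estimates of 0.65 and 0.60. Their region differences were lost in 2 and 5 of the fits that left out 1 mouse. *Slc9a4*, a sodium-proton exchanger, had an adjusted p of 0.0483 (0.0577 without the mouse block), a hippocampal change of -0.53 and a cortical estimate of 1.44 from cortical levels of 3.66 to 59.5. Its region difference was lost in 9 of 17 alternatives.

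In cortex only, the largest rise was that of *Gpr139*, an orphan receptor activated by aromatic amino acids. It read 184, 495, 188 and 207 in the cortex of KI mice 1 to 4 and 28.3, 44.7, 56.6 and 23.6 in WT mice. In hippocampus it read 37.4, 28.3, 29.8 and 44.3 in KI and 54.8, 54, 67.6 and 16.2 in WT mice. The cortical groups did not overlap and the hippocampal groups did, with a region difference of -3.02 ± 0.45 (adjusted p = 0.00787). The value of 495 came from KI mouse 2, and the call held without that mouse. *Akr1c18*, which encodes a steroid dehydrogenase that inactivates progesterone, read 154, 119, 76.6 and 112 in KI and 26.8, 29.3, 25.3 and 23 in WT cortex, and its hippocampal groups overlapped. Its region difference was lost in 6 of the fits that left out 1 mouse. *Ntsr1*, a neurotensin receptor found in deep-layer cortical neurons, changed by 0.93 ± 0.11 in cortex, where it read 343, 347, 384 and 401 in KI and 225, 172, 182 and 194 in WT mice. Its hippocampal estimate was -1.24 (adjusted p = 0.0602). *Fcgbp*, weakly expressed in cortex, rose from 2.36 to 10.6 in WT to 11.7 to 23.0 in KI cortex. The region difference was -2.29 ± 0.47 (adjusted p = 0.0281), and its hippocampal values are not given here. That call was lost in 5 of the fits that left out 1 mouse (adjusted p up to 0.0794).

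*Kcng1*, a modifier subunit of Kv2 potassium channels, read 372, 362, 473 and 324 in KI and 1137, 1076, 884 and 914 in WT cortex. In hippocampus it read 2009.7, 1521, 1232 and 1344 in KI and 1425, 1377, 1090.5 and 1214 in WT mice, with an interval of -0.09 to 0.57 for the change. *Pcsk1*, the prohormone convertase that cleaves neuropeptide precursors, read 931, 833, 1234 and 1205 in KI and 2345, 2446, 2074 and 1775 in WT cortex. Its hippocampal values were 829, 980.5, 2204 and 1610 in KI and 881, 816, 986 and 580.5 in WT mice, where KI mice 3 and 4 lay above and the other KI mice within the WT range. The region difference was 1.63 ± 0.18 for *Kcng1* and 1.75 ± 0.20 for *Pcsk1* (adjusted p = 0.00338 for both). *Rasgrp4*, a Ras guanine exchange factor gene, and *Lrrc75a* changed by -0.98 and -0.54 in cortex, with hippocampal estimates of 0.57 and 0.51. Their region differences were lost in 6 and 2 of the fits that left out 1 mouse.

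The 22 genes called in both regions in opposite directions showed the region dependence most directly. *Lrrc55*, an auxiliary subunit of BK potassium channels, read 1040.2, 997, 1207 and 985 in KI and 505, 493, 537 and 518 in WT hippocampus. In cortex it read 465, 621, 748 and 834 in KI and 909, 921, 1113 and 1098 in WT mice. KI mice thus lay above all WT mice in hippocampus and below all of them in cortex, with changes of 1.04 ± 0.08 and -0.62 ± 0.16. *Grp*, the gastrin-releasing peptide precursor, showed the same, at 697, 863, 614 and 719 against 354, 451, 309 and 249 in hippocampus and 23.6, 45, 79.7 and 102 against 206, 215, 186 and 143 in cortex. *Fosl2*, a subunit of the transcription factor AP-1, changed by 0.92 ± 0.17 in hippocampus and -1.19 ± 0.22 in cortex (region difference adjusted p = 0.00351). In the other direction, *Adcyap1r1*, the receptor of the neuropeptide PACAP, changed by -0.45 in hippocampus and 0.42 in cortex. *Chrd*, the BMP antagonist chordin, changed by -0.48 and 0.59. *Cldn22*, of the claudin family, read 2.71, 5.45, 1.29 and 6.73 in KI and 60.1, 67.1, 36.8 and 66 in WT hippocampus and 14.8, 18.7, 16.6 and 35.9 against 1.8, 3.33, 8.65 and 5.7 in cortex.

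Genes called in both regions in the same direction numbered 30, and 27 of them changed more in hippocampus. *Npy*, the neuropeptide Y precursor, read 9967, 6059, 7972 and 2614 in KI and 608, 778, 626 and 707 in WT hippocampus. In cortex it read 3477, 2139.9, 2090.4 and 2121 in KI and 1484, 1384, 1481 and 1721 in WT mice, a change of 0.66 ± 0.15 against 3.14 ± 0.34 in hippocampus. *Gfap*, the intermediate filament of astrocytes, changed by 2.75 ± 0.32 in hippocampus and 1.56 ± 0.27 in cortex. KI mouse 1 held the highest *Gfap* of both regions, 131431 in hippocampus and 12404 in cortex. *Jsrp1* changed by 2.84 in hippocampus and 0.66 in cortex.

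The functions that responded were described with 45 gene lists, each read beside all tested genes. Of all genes, 3.93% had a called region difference, and 15.6% were called in hippocampus and 5.18% in cortex. Their median log2 change was 0.01 in hippocampus and -0.00 in cortex. Among 25 reactive astrocyte genes, 11 had a called region difference, all larger in hippocampus (7 hippocampus only, 4 both regions). In hippocampus 17 of them rose and none fell, and in cortex 5 rose. The median change was 1.75 in hippocampus and 0.27 in cortex. *Nes*, the intermediate filament nestin, changed by 1.53 ± 0.16 in hippocampus and 0.37 ± 0.20 in cortex. *S100a10* changed by 1.42 and -0.42, and the sphingosine phosphate receptor gene *S1pr3* by 2.07 and -0.23. The region differences of *S100a10* and *S1pr3* were lost in 3 and 4 of the fits that left out 1 mouse. Without KI mouse 1 the list had 13 called region differences and a hippocampal median of 1.38. Homeostatic astrocyte genes gave 4 of 20: the potassium channel gene *Kcnj10* and the water channel gene *Aqp4* were higher in hippocampus only (0.90 and 1.33), and the thyroid hormone transporter gene *Slco1c1* was lower in cortex only (-0.50). The region differences of *Gfap*, *Kcnj10*, *Aqp4* and *Slco1c1* were not called without the mouse block, and that of *Slco1c1* was also lost with total-sum scaling (adjusted p = 0.0562). The 3 astrocyte markers summed to 23433 to 25240 in KI and 27055 to 31296 in WT cortex, and their part in the lower *Slco1c1* was not tested. KI mouse 1 had the highest cortical level of *Gfap*, *Kcnj10* and *Aqp4*, for example 8956 for *Kcnj10* against 5183 to 5949 in the other KI mice.

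Lists for other glia had no called region difference with all mice. Of 15 homeostatic and 25 activated microglia genes, 20 myelin genes, 15 oligodendrocyte precursor genes and 20 interferon-stimulated genes, 0 were called. Activated microglia genes had a median change of 0.96 in hippocampus and 0.19 in cortex, with 4 higher and 1 lower in hippocampus and 2 higher in cortex. These calls were 20% and 8% of the list, near the 15.6% and 5.18% of all genes. Without KI mouse 1 their hippocampal median was 0.55, and 2 activated microglia genes, 1 homeostatic microglia gene and 1 interferon-stimulated gene were called. The 3 microglia markers reached 6080 in 1 KI hippocampus, where the KI median was 3299.

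Cholesterol synthesis genes were higher in KI hippocampus. Of 22 genes, 15 were higher and 1 lower in hippocampus, 0 were called in cortex, and 7 had a called region difference, all of them hippocampus only. The median change was 0.51 in hippocampus and 0.08 in cortex. *Cyp51*, the lanosterol demethylase, read 2323, 1919, 2461 and 2033 in KI and 1459, 1407, 1288 and 1395 in WT hippocampus. In cortex it read 1881, 1619, 1656 and 1546 in KI and 1859, 1744, 1609.7 and 1661 in WT mice, with an interval of -0.20 to 0.12 for the change. *Fdft1* (squalene synthase) and *Sqle* (squalene epoxidase) rose by 0.63 and 0.61 in hippocampus, with cortical estimates of 0.15 and 0.09. Their region differences were lost in 1 and 3 of the fits that left out 1 mouse. Without KI mouse 1 the list had 11 called region differences and without KI mouse 2 it had 6. Fatty acid and peroxisomal genes (28) had 0. *Hmgcs1*, the synthase that makes HMG-CoA and one of the 7, changed by 0.89 in hippocampus and 0.13 in cortex. Its region difference was lost in 7 of 17 alternatives, each of them a fit that left out 1 mouse. *Hmgcs1* was chosen after its values were seen, because its promoter holds the letters of a sterol response element, the kind of sequence that the factor SREBP binds, shown in capitals (GRCm38.p6, chr13:119690101-119690350, plus strand).

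Hmgcs1: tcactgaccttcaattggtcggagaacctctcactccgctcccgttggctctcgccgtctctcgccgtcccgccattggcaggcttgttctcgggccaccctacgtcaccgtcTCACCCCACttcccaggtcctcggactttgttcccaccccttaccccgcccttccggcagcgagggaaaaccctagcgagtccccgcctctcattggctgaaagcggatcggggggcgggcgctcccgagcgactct

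Short sequence motifs were counted in promoters as a description. RefSeq promoters (GRCm38.p6) matched 193 of the hippocampus-only genes that rose and 152 of those that fell, with 245 and 192 promoters of 250 bases. The letters TGACGTCA, searched on both strands, stood in 2.45% and 1.04% of them and in 2.32% of the promoters of tested genes. The SRE letters TCACNCCAC stood in 0.816% and 0.521%, against 0.986%. The AP-1 letters TGANTCA stood in 5.71% and 4.69%, against 4.62%, and the E-box CACGTG in 9.8% and 8.85%, against 7.69%. For cortex-only genes, TGACGTCA stood in 4 of the 61 promoters of those that fell (6.56%) and in 0 of the 29 of those that rose. Among the 61, TGANTCA stood in 8.2%, CACGTG in 1.64% and TCACNCCAC in 0, and among the 29 the shares were 6.9%, 6.9% and 0. A match is letters in a short window and not a binding site.

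Neuronal activity genes were read as 2 lists. Of 24 activity-induced effectors, 15 were higher in hippocampus and 0 lower, while in cortex 4 were higher and 1 lower, and 8 had a called region difference, all more positive in hippocampus. *Rgs4*, a regulator of G protein signalling, read 12791, 6754, 11333 and 6603 in KI and 3376, 3358, 3351 and 3253 in WT hippocampus with no overlap, and the groups overlapped in cortex, at 13518, 11118, 11023 and 11568 and 12671, 13574, 11559 and 11370.2. *Tnfrsf12a*, the receptor of the cytokine TWEAK, changed by 2.08 in hippocampus and -0.07 in cortex. *Inhba*, the activin A subunit, changed by 3.20 and 1.04. Leaving out KI mouse 1 gave 15 called effectors. Immediate early transcription factors (19) had 2, *Fosl2* as above and *Jun*, which rose in cortex only (0.64, with 0.16 in hippocampus) and whose region difference was not called without the mouse block (adjusted p = 0.146). Without KI mouse 1 this list had 7 calls, 6 positive and 1 negative, and its medians moved from 0.46 to 0.24 in hippocampus and from -0.15 to -0.52 in cortex. Neuropeptide precursors had 5 of 20, all more positive in hippocampus. Neuropeptide receptors had 4 of 25, *Sstr2* positive, and *Adcyap1r1*, *Ntsr1* and *Tacr3*, a neurokinin receptor, negative. The call of *Tacr3* was lost in 5 of the fits that left out 1 mouse.

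**Figure D3:**
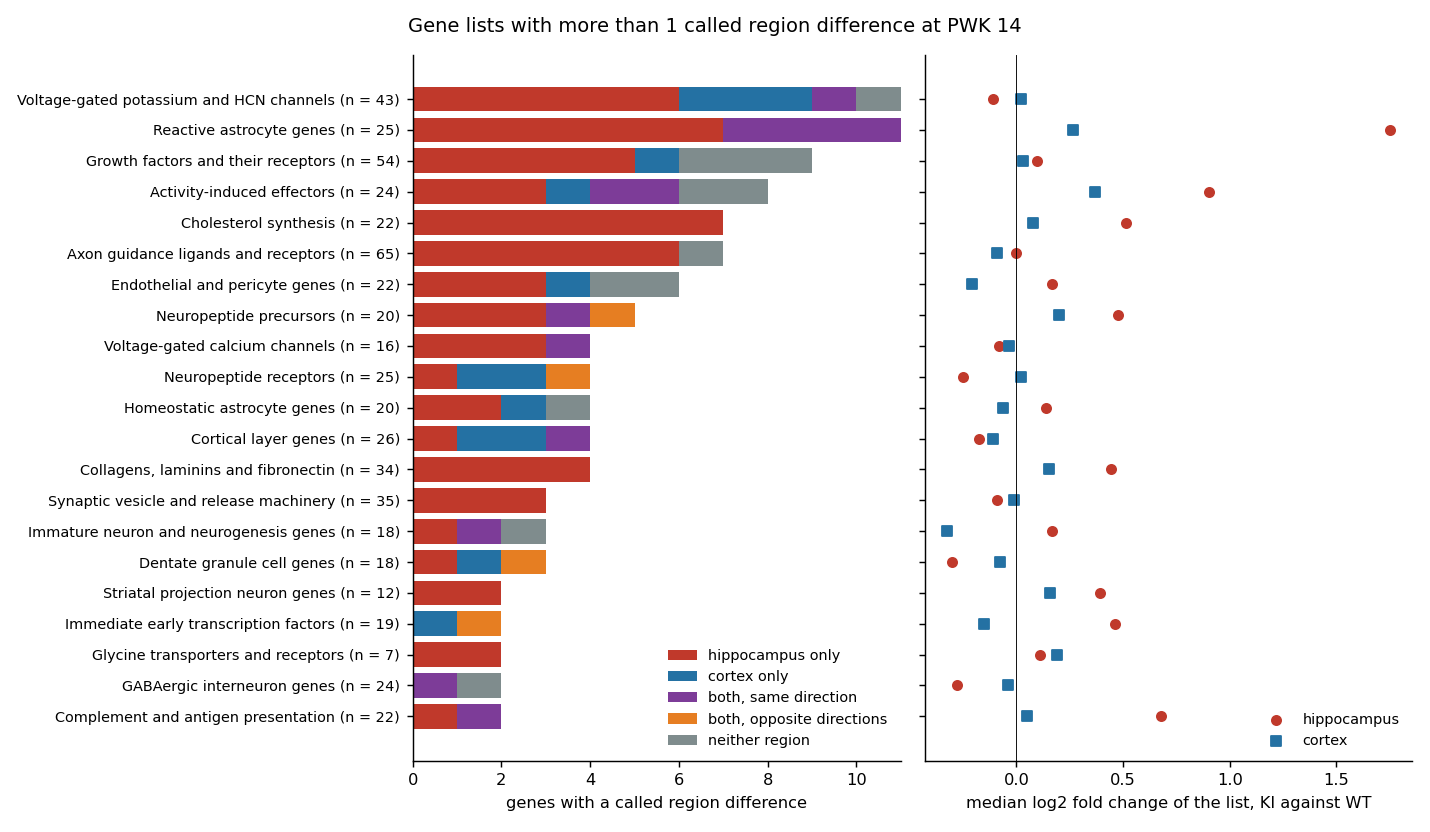
Gene lists with more than 1 called region difference. Left, the number of called genes by class, with the number tested in brackets. Right, the median log2 fold change of the list in hippocampus (circles) and cortex (squares). The 7 called cholesterol synthesis genes are all hippocampus only, and reactive astrocyte genes have the most distant medians, 1.75 and 0.27.

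Ion channel genes moved in both directions. Of 43 voltage-gated potassium and HCN channel genes, 11 had a called region difference, 6 positive and 5 negative, with 6 hippocampus only and 3 cortex only, the latter all lower. *Kcnc1*, the Kv3.1 channel of fast-spiking neurons, was lower in hippocampus only (-0.30 ± 0.05, with -0.05 to 0.22 as the cortical interval). *Hcn3* was higher in hippocampus only (0.56), but lost its region difference in 9 of 17 alternatives, the fit without the mouse block among them (adjusted p = 0.0982), and *Kcnab3*, a beta subunit, was called in neither region (-0.22 in hippocampus and 0.53 in cortex). Leaving out KI mouse 2 left 7 calls on this list and leaving out KI mouse 1 gave 15. Among 16 calcium channel genes, *Cacna1d* was lower (-0.44) and *Cacna2d1* higher (0.32) in hippocampus only. *Cacna1g*, a T-type channel, rose in both regions, by 1.36 in hippocampus and 0.56 in cortex. Without KI mouse 2, 1 of the 4 calcium channel calls was left. The calls of *Cacna1d*, *Cacna2d1* and *Cacna1g* were lost in 3, 6 and 5 of the fits that left out 1 mouse.

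Synaptic lists followed. Of 31 postsynaptic scaffold genes, 12 were lower in cortex and 5 lower in hippocampus with medians of -0.20 in both. The hippocampal calls were 16.1% of the list, near the 15.6% of all genes, and the cortical calls 38.7% against 5.18%. *Dlgap3* was the 1 with a called region difference (2 genes without KI mouse 1), with -0.30 in cortex and 0.30 in hippocampus. Without KI mouse 2, 3 of the 31 were lower in cortex and 3 in hippocampus, while cortical calls over all genes fell from 951 to 431. AMPA and kainate receptor subunits (11) and NMDA and metabotropic glutamate receptors (14) had 0, the latter 1 without KI mouse 1. In the release machinery (35), 3 were called, and 8 without KI mouse 1 (6 positive, 2 negative). Of the 3, *Slc17a6*, the vesicular glutamate transporter of thalamic and other subcortical neurons, was lower in hippocampus only (-0.94 ± 0.23), at 224, 241, 259 and 474 in KI and 508, 559.6, 700.2 and 449 in WT mice, where KI mouse 4 lay within the WT range. Its region difference was not called without the mouse block (adjusted p = 0.116). The summed thalamic markers were lower in the same KI libraries (852 to 1356 against 1722 to 1919), and their part in this result was not tested. *Drd1*, a dopamine receptor abundant in striatum, read 281, 491, 460 and 473 in KI and 63, 114, 129 and 99.7 in WT hippocampus, and its cortical values were 300.1, 763, 278 and 222 and 260.3, 282, 399.9 and 280, the highest again in KI mouse 2. Its region difference was lost in 3 of the fits that left out 1 mouse.

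Among lists for the neuron types of each region, 4 of 26 cortical layer genes (15.4%) had a called region difference. The share was 16.7% for dentate granule cell genes, against 3.93% of all genes. In cortex only, *Fezf2*, a factor of deep-layer projection neurons, was lower (-0.57, with -0.19 to 0.24 in hippocampus) and *Cux2*, a factor of upper-layer neurons, was higher (0.47). Neither region difference was called without the mouse block (adjusted p = 0.0518 and 0.077), and without KI mouse 2 the cortical layer list fell from 4 to 2 calls, with 0 cortex only. CA pyramidal genes (23) had 0 region differences (1 without KI mouse 2), with 8 lower in hippocampus and a median of -0.33. Dentate granule cell genes (18) had 3, with 2 higher and 7 lower in hippocampus and a median of -0.30 there. *Pvalb*, the marker of fast-spiking interneurons, had a called region difference without a call in either region (-0.40 in hippocampus and 0.37 in cortex). Its region difference was not called in the fit over all 64 libraries (adjusted p = 0.158), where its SE was 0.36 against 0.12.

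Vessel genes came next. In hippocampus 4 of 22 endothelial and pericyte genes were higher and 1 lower, and in cortex 3 were lower. Of the 22, 6 had a called region difference, all positive, and 3 without KI mouse 2. *Kdr*, the main VEGF receptor, read 1075, 705, 678 and 642 in KI and 511, 476, 589 and 493 in WT hippocampus and 484, 271, 279.7 and 274 against 433, 390.3, 407 and 483 in cortex. *Vcam1*, an adhesion molecule, and *Mfsd2a*, a lipid transporter of the blood-brain barrier, rose by 0.92 and 0.96 in hippocampus only, but their region differences were not called without the mouse block (adjusted p = 0.0577 and 0.0562). The 3 endothelial markers summed to 2110 to 2494 in KI and 3158 to 3440 in WT cortex and to 2721 to 3716 and 2873 to 3128 in hippocampus, and their part in these results was not tested. Of 34 collagen, laminin and fibronectin genes, 4 were called, all hippocampus only. Without KI mouse 2 there were 2, and without KI mouse 1 there were 6, 4 of them hippocampus only. *Col27a1* changed by 2.25 ± 0.14 in hippocampus and 0.66 ± 0.20 in cortex, and *Col4a1*, of the basement membrane, by 1.02 and 0.24, the latter gene without a called region difference when the mouse block was left out (adjusted p = 0.0577).

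Of 54 growth factor and receptor genes, 9 had a called region difference, 8 of them positive and 5 hippocampus only. Of 65 axon guidance genes, 7 did, with 6 hippocampus only, 3 higher and 3 lower.

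Some further lists held no called gene, which for the shorter ones is near the share of 3.93% over all genes. The WAVE complex, Rac1 and FMRP partners (17 genes), cytosolic ribosomal proteins (81), nuclear oxidative phosphorylation subunits (78), the unfolded protein response (23), DNA replication genes (22) and choroid plexus genes (16) had 0 called. The median region difference was 0.79 for choroid plexus and 0.64 for DNA replication genes. Without KI mouse 1, the median change of the DNA replication genes in hippocampus fell from 0.87 to 0.22. That of the choroid plexus genes rose from 0.81 to 1.55. Without that mouse, the DNA replication, unfolded protein and ribosomal lists each had 1 call, negative and cortex only for DNA replication. Of the partners, 2 were lower in hippocampus (11.8% called, against 15.6% of all genes) and 0 were called in cortex, with medians of -0.02 and -0.06. Before adjustment, 3750 of all 18424 genes had a region difference with p under 0.05 (20.4%).

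Where the genes are normally expressed was read in WT mice of PWK 7, which were not used to call them. Of 18411 tested genes, 38.4% differed between the regions, 19.4% higher in hippocampus and 19.0% higher in cortex. Hippocampus-only genes were higher in hippocampus for 28.9% and in cortex for 35.8%, and cortex-only genes for 26.3% and 50.5%. Response in 1 region was therefore not limited to genes with a higher WT level in that region. *Rasd1* was higher in WT hippocampus by 3.82 on the log2 scale, while *Gm11549* was lower there by 3.10 on that scale.

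Other mice were measured at the other ages. At PWK 7, 0 of 18419 genes had a region difference in limma (0.0%), and 1155 had one before adjustment (6.27% with p under 0.05). In PWK 28 mice, 1259 of 18413 genes did (6.84%), and 4146 before adjustment (22.5%). Of the 724 genes of PWK 14, 161 were called with the same sign and 6 with the other sign at PWK 28, which is 23.1% of them. The share was 55.8% for cortex-only genes (53 with the same sign, 0 with the other) and 68.2% for those of opposite directions (15 and 0), but 16.4% for hippocampus-only genes (78 and 3). *Kcng1*, *Pcsk1* and *Gpr139* kept their sign and call at PWK 28 (1.07, 0.93 and -2.07 on the log2 scale). *Penk*, *Drd1* and *Gm11549* also did (2.32, 1.69 and 1.53).

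For other hippocampus-only genes the cortex of PWK 28 mice had a change as well. Of the 494, 302 were called in hippocampus in the same direction at PWK 28, and 139 were called in cortex in the direction that hippocampus had shown at PWK 14. Over all tested genes these counts were 2726 and 3266, read by the sign of the PWK 14 hippocampal estimate. *Slc6a5* changed by 7.64 in hippocampus and 6.42 in cortex at PWK 28, with a region difference of 1.22 (adjusted p = 0.444). *Glra1* changed by 5.15 and 4.31, *Col27a1* by 1.60 and 2.35, and *Rasd1* by -1.22 and -1.44. *Nes* had its region difference in the other direction at PWK 28 (-1.43, adjusted p = 0.00467). *Sstr2*, the gene with the smallest p at PWK 14, was called in neither region at PWK 28 (0.33 and 0.38) and had a region difference of -0.05. Mice of different ages are different animals, and the difference between ages was not tested here.

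**Figure D4:**
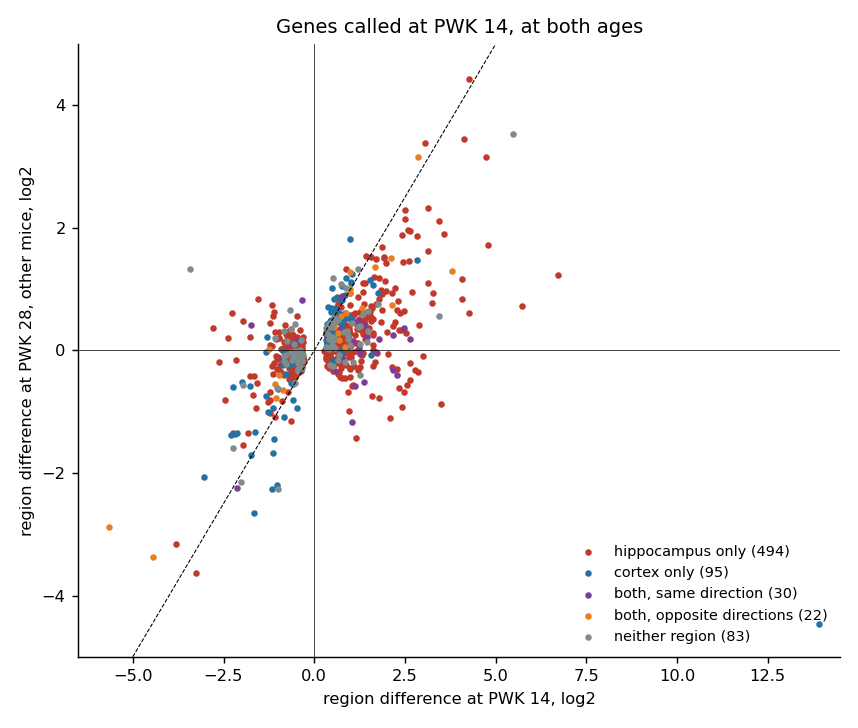
Region difference of the KI effect (hippocampus minus cortex, log2) at PWK 14 (x axis) and in other mice at PWK 28 (y axis) for the genes called at PWK 14, coloured by class, with the dashed line marking equal values. The sign was the same at both ages for 89 of 95 cortex-only and 343 of 494 hippocampus-only genes (69.4%), against 10467 of 18409 tested genes (56.9%). The point at the lower right is the pseudogene *Gm10222*.

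Because each group had 4 mice, the counts of genes by class were repeated with 1 mouse left out. The count of region differences ran from 211 without WT mouse 1 to 1129 without KI mouse 1, that of hippocampus-only genes from 143 to 784, and that of cortex-only genes from 28 to 123. All 724 genes kept the sign of their region difference in each of these fits. That is a description, since the genes were called for a large difference in the same mice.

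**Figure D5:**
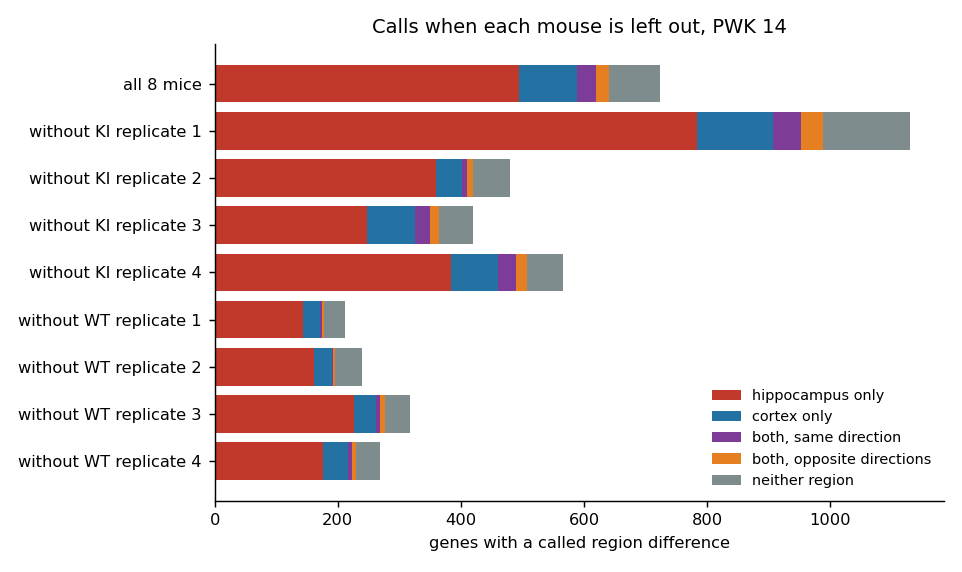
Number of genes with a called region difference, by class, in the full fit and with each mouse left out in turn. The total is 724 in the full fit, lowest at 211 without WT mouse 1 and highest at 1129 without KI mouse 1.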

How the data were processed

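The members and gene lists were chosen with earlier results of these data known. The authors estimated counts with Salmon 0.11.2 on GRCm38 (per the labels, which name an mRNA kit) and deposited a signal table, estimated counts divided by DESeq2 1.19.11 size and length factors over all 64 libraries. It holds 18432 genes with a mean of at least 4.25, so weakly expressed genes had been removed. Since values are not whole counts, limma-trend (limma 3.58.1, R 4.3.3) was fitted on log2(value + 1), which understates changes of low genes, for genes with a mean of at least 1. The region difference was the genotype by region term with mouse as a fixed block (4 KI, 4 WT mice), and within-region tests used 4 against 4 libraries without covariates. Benjamini-Hochberg adjustment ran over all genes tested, with a threshold of 0.05. Log2 changes are KI minus WT with SE.

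Equal numbers were checked as mice: cortical and hippocampal deviations of one number correlated by 0.151 on average (5 of 8 pairs over 0.1, range -0.041 to 0.456) and those of other numbers by -0.048, over 12790 genes. The mouse identity comes from the way the samples are numbered, and the data show it only in part. GENCODE M21 matched 18420 gene IDs, and depth in reads is not given by normalised values, so precision rests on 4 mice per group. Genes named by class were protein-coding, called, and without overlap between the within-mouse differences of KI and WT mice. They were also above 0 in every library of their highest group, with a mean of at least 50. Taken were the 6 largest differences of each sign (hippocampus only), 4 of each sign (cortex only) and the 4 smallest p (both same, both opposite). Added without these filters were the 2 smallest p of all, *Cyfip2*, *Gfap*, and up to 4 genes per list by p. Genes outside the rule are said to be so where they appear, and some genes that meet it are not reported here.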

Additional observations from a re-analysis of the deposited data

Results flagged for a closer look

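Single mice far from the other 3 of their group were looked for in 316 groups of 79 genes, and 42 were found, where chance gives about 1 in 20. Of these, 12 were KI mouse 1 in hippocampus, 8 KI mouse 1 in cortex and 3 KI mouse 2 in cortex. Values are normalised counts, each followed by that of the nearest of the others.

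In hippocampus, KI mouse 1 stood apart for *Aqp4* (26864 against 7849), *Drd1* (281 against 460.0), *Gfap* (131431 against 47169), *Kcnj10* (17603 against 8932), *Kdr* (1075 against 705), *Lrrc75a* (281 against 207), *Mfsd2a* (2687 against 1207), *S1pr3* (2918 against 1006), *Serpina3i* (169 against 44.2), *Tgm1* (1702 against 123), *Timp1* (876 against 63.8) and *Trh* (5060.2 against 372). In cortex, KI mouse 1 stood apart for *Aqp4* (4536 against 2685), *Col4a1* (3532 against 2338), *Gfap* (12404 against 5221), *Hcn3* (625 against 441), *Hmgcs1* (11750.1 against 8166), *Kdr* (484 against 279.7), *Npy* (3477 against 2139.9) and *Slco1c1* (1384 against 1095). In hippocampus, KI mouse 3 stood apart for *Erich5* (6.4 against 19.7), *Fdft1* (3300.4 against 2736), *Fosl2* (3982 against 2451) and *Hmgcs1* (13105 against 9678). In hippocampus, KI mouse 4 stood apart for *Cux2* (1072 against 699.8), *Ntsr1* (129 against 43.4) and *Slc17a6* (474 against 259). In cortex, KI mouse 2 stood apart for *Drd1* (763 against 300.1), *Gpr139* (495 against 207) and *Serpina3i* (1.6 against 0). In cortex, WT mouse 3 stood apart for *Drd1* (399.9 against 282) and *Otop1* (1.4 against 0). In hippocampus, WT mouse 3 stood apart for *Glra1* (3.7 against 1.1) and *Vcam1* (1298 against 911). In cortex, KI mouse 4 stood apart for *Gm10222* (76.9 against 0) and *Kcnc1* (7892 against 6791). In cortex, WT mouse 1 stood apart for *Serpina3i* (0.7 against 0) and *Socs3* (128 against 105). In hippocampus, WT mouse 4 stood apart for *Cyfip2* (35756 against 31256). In hippocampus, WT mouse 1 stood apart for *Gm10222* (4495 against 202). In cortex, KI mouse 3 stood apart for *Slc6a5* (42.3 against 16.3). In cortex, WT mouse 4 stood apart for *Tef* (13896 against 14323).

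The KI effect itself differed between hippocampus and cortex for 724 genes at PWK 14 and for 1259 genes at PWK 28, each by the genotype by region term.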

How the results depend on the processing

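All 724 genes kept the sign of their region difference in every alternative that tested them (630 of them with a mean of at least 100). This is no check of the calls. Fits with another block or none have the same estimates, and the other fits use the same libraries or most of them. A fit over all 64 libraries with the mouse as a block, which has more samples to estimate the spread, called 2670 region differences, with 1490 genes in 1 region (1253 hippocampus only, 237 cortex only) and 70 in both in the same direction. With 1 mouse left out, the count ran from 211 to 1129, the cortical count from 339 to 1001, the hippocampal count from 1456 to 3205, genes of 1 region from 171 to 907, hippocampus only from 143 to 784, cortex only from 28 to 123, both in the same direction from 2 to 46 and both in opposite directions from 2 to 35. Without the replicate block, 525 genes were called, 443 of them among the 724, and as a random block 876. Other pseudocounts gave 699 and 757, no filter 711, a mean of at least 100 gave 759, and a GC and length correction with the replicate block 810. Total-sum scaling gave 794, with 49.4% of region differences positive against 59.0%, and 60.4% of cortical calls higher in KI against 47.8%; it moved the median of all genes by -0.03. Of 78 named genes with a call, 31 kept it throughout, 25 lost it only with a mouse left out, 22 lost it elsewhere and 0 reversed. Causes were not tested. With 4 mice per group, a missed call does not show equal effects.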

Other observations

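Genes of 3 further kinds, chosen after their values were seen, had a called region difference. The clock output factors *Tef* and *Hlf* changed by -0.83 ± 0.09 and -1.48 ± 0.25 in hippocampus, with cortical estimates of 0.02 ± 0.06 and -0.36 ± 0.17 on the log2 scale. *Tef* read 7506, 6809.6, 6209 and 8597 in KI and 12820.1, 12773, 12681 and 13269 in WT hippocampus and 12908, 14306, 15302 and 15260 against 14374, 14323, 14410.2 and 13896 in cortex. The repressors *Ciart*, *Per3* and *Nr1d2* of the same clock had hippocampal changes of -0.94, -1.08 and -0.85 and cortical changes of 0.21, -0.00 and -0.08. The hour of each mouse within the window is not given in the sources used here.

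The subunits of the ATP-sensitive potassium channel were *Kcnj11*, the pore, with -0.48 ± 0.12 in hippocampus and 0.10 ± 0.08 in cortex, and *Abcc8*, the sulfonylurea receptor, with -1.21 ± 0.18 and -0.24 ± 0.12. *Kcnj11* read 651, 888, 814 and 971 in KI and 1079, 1101, 1235 and 1187 in WT hippocampus. In the cytokine pathway, *Socs3*, an inhibitor of JAK-STAT signalling, changed by 2.76 in hippocampus and -0.68 in cortex, *Osmr*, the oncostatin M receptor, by 2.17 and 0.31, and *Timp1*, a metalloproteinase inhibitor, by 4.65 and 1.08. *Hlf*, *Osmr* and *Timp1* lost the call without the replicate block, and *Osmr* and *Timp1* lost it in 6 alternatives each. In fits that left out 1 mouse, *Socs3* and *Nr1d2* lost theirs 5 times each, and *Per3* and *Abcc8* 1 time each.

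The pseudogene *Gm10222*, also chosen after its values were seen, read 0, 0, 0 and 76.9 in KI and 4477, 3824, 5594 and 5266 in WT cortex, but 2727, 0, 3348 and 886 and 4495, 0, 0 and 202 in hippocampus. As an unprocessed pseudogene its assigned reads are uncertain, and WT hippocampal libraries ranged from 0 to 4495.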
